A study of Mus musculus with 6 samples.

Results

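The 35 genes described here encode the fatty acid oxidation machinery of mouse liver, and they were taken by symbol from a fixed list. All 35 were found among the 40803 mouse genes of the count table. By the usual location of their proteins, 14 are peroxisomal, 17 are mitochondrial and 4 (Eci2, Ech1, Crat and Acad11) were kept apart because they are known from both organelles. Livers came from male C57BL/6J mice, described as normally fed. Each mouse was about 6 weeks old when it received a recombinant adeno-associated virus of serotype 8 (rAAV8) through the tail vein, and livers were collected 4 weeks later. The virus of the rAAV8-sh-Hnf1aos1 group (3 mice) carried a short hairpin RNA against Hnf1aos1, a long non-coding RNA. The virus of the rAAV8-sh-scramble group (3 mice) carried a scrambled hairpin as the control. The U6 promoter, which is not restricted to hepatocytes, drove the hairpin against Hnf1aos1, and a green fluorescent protein reporter was used to follow delivery. No uninjected livers were analysed here. The 2 groups are called knockdown and scramble below, and each library came from the liver of 1 mouse.

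Beta-oxidation shortens a fatty acyl-CoA by repeated rounds of dehydrogenation, hydration, a second dehydrogenation and thiolytic cleavage. Mitochondria oxidize most long-chain fatty acids, which enter as carnitine esters, and their dehydrogenases pass electrons to the respiratory chain through the electron transfer flavoprotein. Peroxisomes shorten very long-chain, branched and dicarboxylic acids and bile acid precursors with a separate set of enzymes, and the shortened chains leave as carnitine esters for the mitochondria. Many of these genes are known targets of the nuclear receptor PPARα, which rises in activity during fasting.

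Total gene counts were 14704746 to 19462398 per library, and the ERCC spike-in transcripts took 1.38% to 1.52% of the counts of scramble libraries and 1.18% to 1.24% of those of knockdown libraries. Hnf1aos1 had normalized counts (counts scaled to a common library size) of 512, 491 and 620.3 in the scramble libraries and 278, 258 and 433 in the knockdown libraries, so that the groups did not overlap. Its log2 fold change was -0.74 with an adjusted p of 0.0625 in edgeR's quasi-likelihood test, which missed the 0.05 threshold. DESeq2 gave an adjusted p of 0.00294. Without knockdown replicate 3, whose Hnf1aos1 count was the highest of its group, edgeR gave an adjusted p of 0.000261. Without strand in the counting, which is not stated, reads of Hnf1aos1 could not be told from those of the opposite strand. The liver label matched the 6 hepatocyte markers in the table, whose summed level was 68601 to 82805 TPM, a level scaled for transcript length and library total. None of the 6 was called by edgeR, 1 had an unadjusted p under 0.05 and DESeq2 called 1 higher. Here and below, a gene is called when its Benjamini-Hochberg adjusted p in edgeR, over all 16327 genes tested, is under 0.05.

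All 35 members passed the filter on low counts, and the lowest count of any member in any library was 53. After Hnf1aos1 knockdown, 2 of the 35 were called lower, the carnitine acetyltransferase gene Crat and the peroxisomal thiolase gene Acaa1b, and none was called higher by edgeR or DESeq2. Over all genes tested, 6.32% were called, 3.23% lower and 3.09% higher, and 3.15% were called lower among genes at least as abundant as the lowest member. None of the 35 was both called and past a log2 fold change of -1, against 1.37% of all genes. DESeq2 called 4 members lower, adding Ehhadh and Abcd2, against 7.8% of all genes called by it, 3.92% lower and 3.88% higher. At an unadjusted p under 0.05 in edgeR, 7 members were lower and 0 higher, against 23.4% of all genes in either direction and 11.4% lower. The log2 fold change was below 0 in 27 of the 35, against 50.1% of all genes. Normalized counts of the groups did not overlap for 6 members that were lower (Crat, Acaa1b, Ehhadh, Abcd2, Acadl and Eci2) and for 1 that was higher (Scp2), against 13.7% and 15.2% of all genes. The other 33 members were not called, and the 95% interval of 31 of them lay within a log2 change of -1 and 1, with 28 within -0.58 and 0.58.

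**Figure D1:**
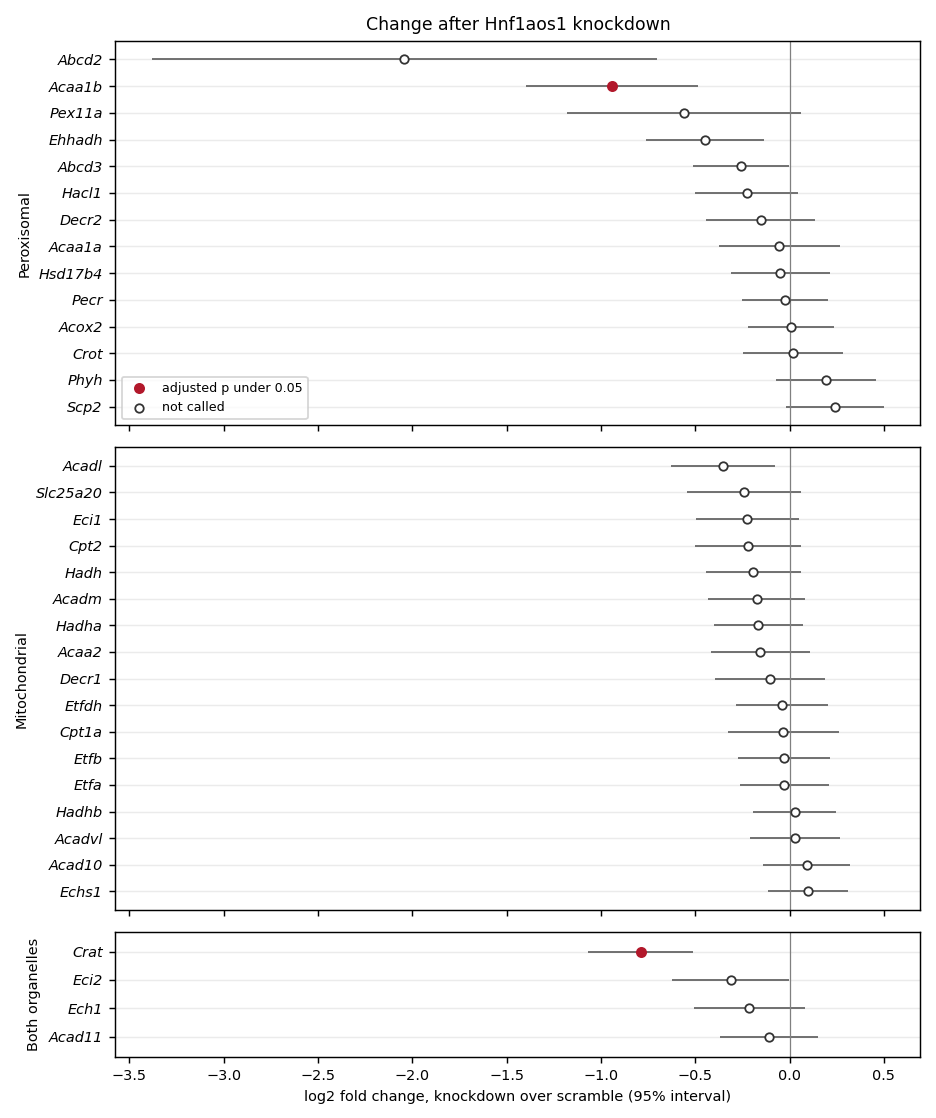
Log2 fold change of each of the 35 members (x axis, knockdown over scramble) with its 95% interval, with peroxisomal, mitochondrial and shared genes in separate panels. Filled points mark the 2 called genes, Acaa1b at -0.94 and Crat at -0.79, and the lowest open point is Abcd2 at -2.04, which has the widest interval.

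Peroxisomal genes were compared with mitochondrial ones. Of the 14 peroxisomal members 1 was called lower and 10 lay below 0, and of the 17 mitochondrial members 0 were called and 13 lay below 0. Over all genes tested, 3.23% were called lower and 50.1% lay below 0, and counts this small do not separate the compartments. The median log2 fold change was -0.10 in each compartment, but 0.09 and 0.10 under library sizes taken from the spike-ins, which moved the median of all genes from 0.00 to 0.20. Relative to that shift the members still lay about as far below the median gene as before. Both medians also moved with single libraries. The peroxisomal median was -0.015 without scramble replicate 2, -0.023 without knockdown replicate 1, -0.17 without scramble replicate 3, -0.19 without scramble replicate 1 and -0.19 without knockdown replicate 3. The mitochondrial median was -0.0020 without knockdown replicate 1, -0.011 without scramble replicate 2, -0.16 without knockdown replicate 2, -0.18 without scramble replicate 3 and -0.23 without knockdown replicate 3. The medians of the 2 compartments were thus not equal in every fit, with -0.19 and -0.12 without scramble replicate 1. The peroxisomal changes ran from -2.04 to 0.24 and the mitochondrial ones from -0.35 to 0.10. At an unadjusted p under 0.05 in edgeR, 4 of the 14 peroxisomal and 1 of the 17 mitochondrial members (Acadl) were lower, against 11.4% of all genes. DESeq2 called 3 peroxisomal and 0 mitochondrial members lower, against 3.92%. Normalized counts of the groups did not overlap for 3 peroxisomal members that were lower and 1 that was higher. Among mitochondrial members this held for 1 that was lower and 0 that were higher, against 13.7% and 15.2% of all genes. No test of the difference between the compartments was made, since genes are not replicates of a group.

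The carnitine shuttle moves long-chain acyl groups into mitochondria and balances short acyl-CoA pools. Crat, which transfers acetyl and other short acyl groups between CoA and carnitine, had normalized counts of 1103, 1214 and 1061 in the scramble libraries and 533, 649 and 773 in the knockdown libraries. Every knockdown value was below every scramble value, and the knockdown mean was 57.9% of the scramble mean. Its log2 fold change was -0.79 ± 0.13 (SE, n = 3 per group) with an adjusted p of 0.00803 (edgeR). Crat was called in all 14 alternative fits, with adjusted p of at most 0.0474 when 1 library was left out. Its level in TPM fell from 27.5 ± 1.33 to 15.1 ± 2.42 (SD, n = 3). The rest of the shuttle was not called. Cpt1a, the malonyl-CoA-sensitive entry step at the outer membrane, had 4308, 5307 and 4182 normalized counts in the scramble libraries and 3826, 5256 and 4407 in the knockdown libraries. The Cpt1a groups overlapped, and its log2 fold change was -0.03 with a 95% interval of -0.32 to 0.26. Cpt2, which returns acyl groups to CoA inside the mitochondrion, and the carnitine-acylcarnitine carrier gene Slc25a20 had log2 fold changes of -0.22 and -0.24 with adjusted p of 0.329 and 0.313 (edgeR).

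**Figure D2:**
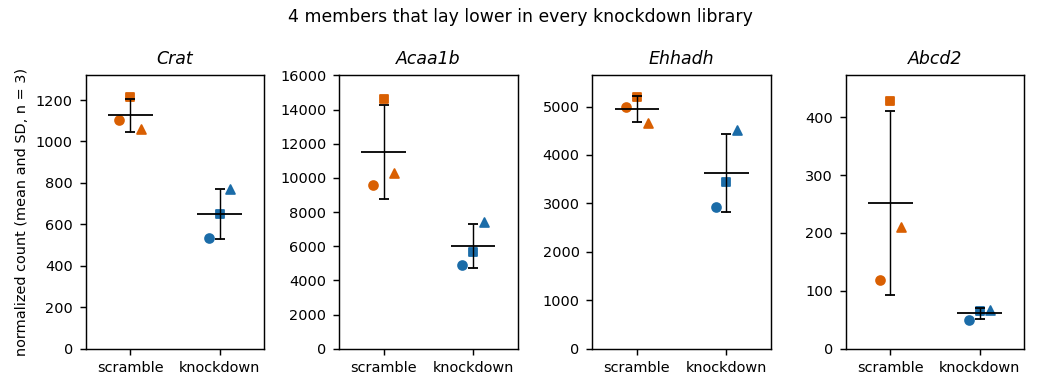
Normalized counts (y axes, from 0) of Crat, Acaa1b, Ehhadh and Abcd2 in the 3 scramble and 3 knockdown libraries, with circles, squares and triangles for replicates 1, 2 and 3, and lines and bars for the mean and SD. No knockdown value reaches a scramble value in any of the 4 genes, and Abcd2 has 1 scramble library at 428 far above the other scramble values of 118 and 211.

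The mitochondrial acyl-CoA dehydrogenases carry out the first step of each round, with a different chain length preference for each enzyme. Acadl, the long-chain enzyme, had normalized counts of 1388, 1785 and 1477 in the scramble libraries and 1033, 1225 and 1379 in the knockdown libraries. The Acadl groups did not overlap, although knockdown replicate 3 came close to scramble replicate 1. The log2 fold change of Acadl was -0.35 ± 0.13 (SE), with an adjusted p of 0.117 (edgeR) and 0.0337 without knockdown replicate 3. The very long-chain enzyme gene Acadvl and the medium-chain gene Acadm had log2 fold changes of 0.03 and -0.17. Acad10 and Acad11, relatives of the classical dehydrogenases, had 0.09 and -0.11, and none of these 4 was called, with adjusted p from 0.398 to 0.897 (edgeR).

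None of the 5 genes for the later mitochondrial steps was called by edgeR or DESeq2, and 0 had an unadjusted p under 0.05. Echs1, the short-chain hydratase gene, had a log2 fold change of 0.10, Hadh, the short-chain 3-hydroxyacyl-CoA dehydrogenase gene, of -0.19, and the thiolase gene Acaa2 of -0.15. Hadha and Hadhb encode the α and β subunits of the mitochondrial trifunctional protein, which combines hydratase, dehydrogenase and thiolase activities on long chains. The 2 genes lie head to head on chromosome 5, with 272 bases between their RefSeq start sites (build GRCm38.p6). Hadha had normalized counts of 4357, 5016 and 4282 in the scramble libraries and 3631, 4112 and 4434 in the knockdown libraries, a log2 fold change of -0.17. Hadhb had 2217, 2322 and 2092 in the scramble libraries and 2035, 2198 and 2521 in the knockdown libraries, a change of 0.03. The 95% intervals were -0.40 to 0.07 for Hadha and -0.19 to 0.25 for Hadhb.

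The auxiliary isomerases and dienoyl-CoA reductases bring the double bonds of unsaturated chains into the position the main enzymes use. The gene of another reductase, Pecr, was grouped with them here. All 6 genes lay below 0 and none was called by edgeR or DESeq2, with 1 (Eci2) at an unadjusted p under 0.05. Eci2, an enoyl-CoA isomerase gene of both organelles, had normalized counts of 2066, 2413 and 2024 in the scramble libraries and 1359, 1862 and 2014 in the knockdown libraries. Knockdown replicate 3 of Eci2 stood just under the lowest scramble library, so that the groups only narrowly did not overlap, and the log2 fold change was -0.31 with an adjusted p of 0.213 (edgeR). The mitochondrial isomerase gene Eci1, the dienoyl-CoA isomerase gene Ech1 and the dienoyl-CoA reductase genes Decr1 (mitochondrial) and Decr2 (peroxisomal) had log2 fold changes of -0.22, -0.21, -0.10 and -0.15. Pecr, a peroxisomal trans-enoyl-CoA reductase gene, was at -0.02.

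The electron transfer flavoprotein passes electrons from the dehydrogenases to ubiquinone by way of its own dehydrogenase. Its subunit genes Etfa and Etfb and the dehydrogenase gene Etfdh had log2 fold changes of -0.03, -0.03 and -0.04, each with a 95% interval inside -0.29 and 0.22. Their normalized counts overlapped between groups in all 3 genes.

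Entry into the peroxisome uses half-transporters of the ABC subfamily D. Abcd2, the lowest expressed member, had normalized counts of 118, 428 and 211 in the scramble libraries and 50.5, 65.6 and 67.0 in the knockdown libraries. The Abcd2 groups did not overlap, and its scramble values differed among themselves far more than its knockdown values did. Its log2 fold change was -2.04 ± 0.53 (SE), or 24.3% of the scramble mean, with an adjusted p of 0.0939 (edgeR) and 0.00478 (DESeq2). Without scramble replicate 2 the change was -1.43 with an adjusted p of 0.0287, and without scramble replicate 1 it was -2.38 with 0.00869 (edgeR). Abcd2 is also known from muscle and fat, and markers of those tissues were read beside it. The 5 skeletal muscle markers summed to 52.2, 179 and 114 TPM in the scramble libraries and 58.8, 45.5 and 21.0 TPM in the knockdown libraries, with scramble replicate 2 highest as for Abcd2. Among the knockdown libraries their order was opposite to that of Abcd2, and their sums overlapped between groups. Of the 5, 0 were called by edgeR or DESeq2 and 2 had an unadjusted p under 0.05, both lower. The 5 adipocyte markers summed to 7.07, 13.1 and 12.3 TPM and to 4.34, 6.87 and 3.26 TPM, and 1 of the 2 that could be tested, Cfd, was called lower. Of the 6 fits that left out 1 library, Cfd was called in 2, those without scramble replicate 1 and without knockdown replicate 3, with adjusted p of up to 0.173 in the rest (edgeR). None of these markers was at 0 in all libraries, and their part in the Abcd2 result was not tested. In whole liver, fewer cells of a type and less RNA per cell cannot be told apart.

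Abcd3, the main fatty acyl-CoA transporter of the liver peroxisome, had a log2 fold change of -0.26 with an adjusted p of 0.205 (edgeR). Pex11a, which takes part in peroxisome division and responds strongly to PPARα agonists, had normalized counts of 774, 1493 and 1004 in the scramble libraries and 609, 797 and 813 in the knockdown libraries. Scramble replicate 1 lay among the knockdown values of Pex11a, and its log2 fold change of -0.56 had an adjusted p of 0.256 (edgeR).

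The core of the peroxisomal spiral held 1 of the 2 called genes. Acaa1b, a 3-ketoacyl-CoA thiolase gene, had normalized counts of 9592, 14647 and 10311 in the scramble libraries and 4899.8, 5677 and 7436 in the knockdown libraries. All 3 knockdown values of Acaa1b were below the scramble range, and the knockdown mean was 52.1% of the scramble mean. The log2 fold change of Acaa1b was -0.94 ± 0.20 (SE) with an adjusted p of 0.0336 (edgeR) and 4.22e-06 (DESeq2). The edgeR call depended on the libraries kept, since the adjusted p was 0.0521 without scramble replicate 2, 0.108 without scramble replicate 3, 0.0886 without knockdown replicate 1 and 0.115 without knockdown replicate 2. It was 0.0569 when no filter on low counts was used.

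Acaa1b has a near copy, Acaa1a, which lies 182582 bases away on the opposite strand of chromosome 9 (Acaa1a at chr9:119339676-119350299, plus strand, and Acaa1b at chr9:119148023-119157093, minus strand, GENCODE vM21 on GRCm38). Their coding sequences, 1272 bases each, are identical at 96.5% of positions and differ at 44. Of the 1540 windows of 150 bases (the read length) in the Acaa1b transcript, 205 also occur in Acaa1a, so that a single read lying wholly in one of them would not map uniquely. The stretch with the most differences, coding bases 460 to 519, is shown as an example of how the 2 mRNAs differ, with the 11 differing bases in capitals (5′ to 3′ of each mRNA, GRCm38, chr9:119346483-119346542 for Acaa1a and chr9:119151842-119151901 for Acaa1b).
Acaa1a: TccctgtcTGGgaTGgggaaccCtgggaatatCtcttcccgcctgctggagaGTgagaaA
Acaa1b: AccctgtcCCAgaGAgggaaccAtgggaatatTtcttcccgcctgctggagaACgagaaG
Acaa1a had normalized counts of 917, 1233 and 1032 in the scramble libraries and 823, 1101 and 1139 in the knockdown libraries. The Acaa1a groups overlapped, and its log2 fold change was -0.05 with a 95% interval of -0.37 to 0.26, which does not reach the change fitted for Acaa1b.

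Ehhadh, the peroxisomal bifunctional enzyme that acts on straight and dicarboxylic chains, had normalized counts of 4999.7, 5191 and 4652 in the scramble libraries and 2930.5, 3442 and 4509 in the knockdown libraries. Knockdown replicate 3 of Ehhadh came close to the scramble libraries and the other two lay far below them. Ehhadh had a log2 fold change of -0.45 ± 0.14 (SE) with an adjusted p of 0.0889 (edgeR), 0.0324 (DESeq2) and 0.0034 without knockdown replicate 3. Hsd17b4, the bifunctional enzyme that handles branched chains and bile acid precursors, had a log2 fold change of -0.05, and Acox2, the branched-chain acyl-CoA oxidase, of 0.01 with a 95% interval of -0.22 to 0.24. Scp2, whose gene gives both a thiolase for branched chains and the sterol carrier protein, had 51632, 61185 and 48031 normalized counts in the scramble libraries and 62957, 63583 and 63565 in the knockdown libraries. It was the 1 member whose knockdown values all lay above the scramble values, with a log2 fold change of 0.24 and an adjusted p of 0.247 (edgeR). Only under spike-in library sizes was Scp2 called higher among the alternatives, at 0.44 with an adjusted p of 0.0419.

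Crot, which makes the carnitine esters in which shortened chains leave the peroxisome, had a log2 fold change of 0.02. The α-oxidation genes, which remove a single carbon from phytanic acid and other 3-methyl chains, were not called either. Phyh, the phytanoyl-CoA hydroxylase gene, had a log2 fold change of 0.19 (adjusted p = 0.365 in edgeR), and Hacl1, the lyase gene of the next step, of -0.23 (adjusted p = 0.299).

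Genes of like function, and the subunit genes Hadha and Hadhb, were set against each other inside each library as ratios of TPM. The 7 pairs were chosen after their values had been seen. The Acaa1b over Acaa1a ratio was 9.29, 10.6 and 8.87 in the scramble libraries and 5.29, 4.58 and 5.79 in the knockdown libraries, a log2 change of -0.88. The Crat over Crot ratio was 0.118, 0.135 and 0.139 in the scramble libraries and 0.0703, 0.0703 and 0.0811 in the knockdown libraries, a log2 change of -0.82. Neither pair of groups overlapped. Ehhadh over Hsd17b4 changed from a mean of 0.916 to 0.686, with the lowest scramble library at 0.824 and the highest knockdown library at 0.821. Abcd2 over Abcd3 went from 0.0260 to 0.00772, and Hadha over Hadhb from 4.49 ± 0.214 to 3.94 ± 0.127 (SD, n = 3), again without overlap. Eci2 over Eci1 and Decr2 over Decr1 overlapped between groups, with log2 changes of -0.11 and -0.04. In a two-sided exact permutation test the 5 pairs without overlap each had p = 0.1, the smallest that 3 libraries against 3 allow, and 0.14 after Benjamini-Hochberg adjustment over the 7 pairs. The adjustment does not cover the choice of pairs. Acaa1b, Crat, Ehhadh and Abcd2 already did not overlap by themselves, as did 28.9% of all genes in either direction. The test therefore adds nothing to those results, and the share of other gene pairs without overlap was not measured.

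**Figure D3:**
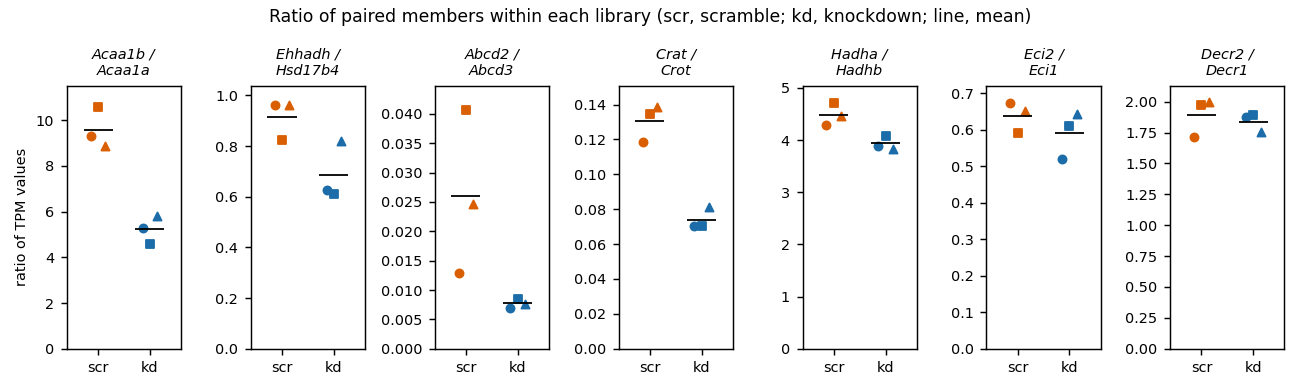
Ratio of TPM values (y axes, from 0) of 7 pairs of members inside each library, with circles, squares and triangles for replicates 1, 2 and 3, and a line at the group mean. The Acaa1b over Acaa1a ratio is 9.57 in scramble and 5.22 in knockdown livers on average, and the 2 rightmost pairs overlap between groups.

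The members also moved together among the mice of each group. Knockdown replicate 1 was the lowest of the 3 knockdown libraries in all 35 members, against 35.1% of all genes tested, and the lowest of all 6 libraries in 29. Scramble replicate 2 was the highest of the 3 scramble libraries in 33 of 35, against 34.5% of all genes, and knockdown replicate 3 was the highest of its group in 30. Averaged over the members as log2 relative to the scramble mean, the scramble libraries stood at -0.10, 0.18 and -0.12 and the knockdown libraries at -0.42, -0.17 and -0.07. Knockdown replicates 2 and 3 thus lay nearer to scramble replicates 1 and 3 than to knockdown replicate 1. The 17 mitochondrial members alone averaged -0.30, -0.06 and 0.03 in the knockdown libraries, so that knockdown replicate 3 stood above scramble replicates 1 and 3, which averaged -0.06 and -0.11. The 14 peroxisomal members averaged -0.51, -0.28 and -0.16 in the knockdown libraries and -0.16, 0.22 and -0.14 in the scramble libraries. Knockdown replicate 3 thus stood level with scramble replicate 1 in the peroxisomal members.

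**Figure D4:**
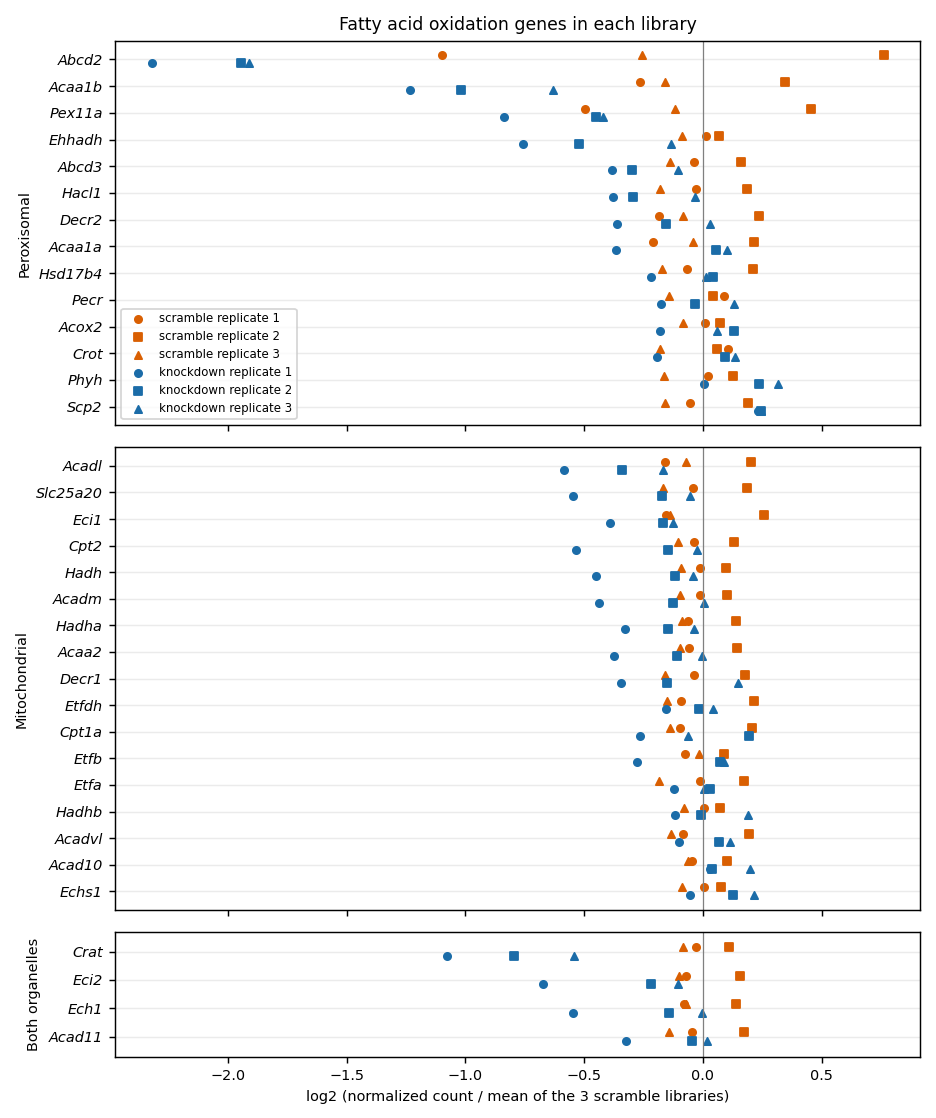
Normalized count of each member in each library as log2 relative to the mean of the 3 scramble libraries (x axis), with scramble libraries in orange, knockdown libraries in blue, and circles, squares and triangles for replicates 1, 2 and 3. The blue circle (knockdown replicate 1) is leftmost of the blue points in all 35 rows, and the orange square (scramble replicate 2) is rightmost of the orange points in 33.

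Lists of other genes showed part of the same order. Knockdown replicate 1 was lowest of its group in 16 of 21 other beta-oxidation genes, 12 of 15 peroxisome biogenesis genes, 10 of 16 genes of mitochondrial content and 5 of 6 hepatocyte markers. Scramble replicate 2 was highest of its group in 18, 11, 14 and 2 genes of the same lists. Among 18 genes of PPARα, its partners and its targets outside oxidation, knockdown replicate 1 was lowest of its group in 12. Scramble replicate 2 was highest of its group in 17 of these 18. The shares over all genes tested were 35.1% for knockdown replicate 1 and 34.5% for scramble replicate 2. The summed level of the hepatocyte markers was also lowest in knockdown replicate 1, at 68601 TPM, and highest in knockdown replicate 3, at 82805 TPM, and its part in the order was not tested.

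Levels per transcript length, in TPM, spanned more than 2 orders of magnitude among the members. Scp2 had 2443 ± 253 TPM and Phyh 1972 ± 144 TPM in scramble livers (SD, n = 3), each standing apart from the next gene by more than the summed SDs. Acaa2 with 781 ± 56.99 TPM and Acaa1b with 668 ± 147 TPM followed and did not differ beyond their spread. Ech1 (329 TPM) and Hadh (276 TPM) came next. From Hacl1 (235 TPM) down through Hsd17b4, Pecr, Acad11, Hadha, Ehhadh, Crot and Abcd3 to Acadm (187 TPM), no gene differed from the next by more than their summed SDs. Crat (27.5 TPM), Acad10 (10.9 TPM) and Abcd2 (5.58 TPM) were the lowest. The median peroxisomal member had 213 TPM and the median mitochondrial member 135 TPM in scramble livers, and 178 and 110 TPM in knockdown livers. In knockdown livers Acaa1b stayed at rank 4, at 330 ± 65.1 TPM, and Ehhadh went from rank 12 to rank 18. The 35 members together summed to 10374 ± 913 TPM in scramble and 9749.7 ± 611 TPM in knockdown livers, a difference smaller than the scramble SD. This total leans on Scp2 and Phyh, which had 2743 and 2135 TPM in knockdown livers, neither of them called. The peroxisomal members summed to 6398 to 7622 TPM in scramble and 6461 to 7088 TPM in knockdown libraries. The mitochondrial members alone summed to 2702 to 3082 TPM in scramble and 2224 to 2673 TPM in knockdown libraries.

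The half-site AGGTCA, repeated in the same direction with any 1 base between the 2 copies, is the element that PPARα binds with its partner RXRα. RefSeq promoters of 300 bases (250 before to 50 after the start site, build GRCm38.p6) were found for 30 of the 35 members, as 32 promoters, and not for Abcd2, Acaa2, Crat, Decr1 and Hsd17b4. This repeat, sought on both strands, had no exact match in the 32, against 0.0396% of all 32851 promoters. With up to 2 mismatches, a limit chosen after the promoters had been read, 4 of 32 (12.5%) held it, against 3.86% of all promoters and 3.31% of those of genes tested. The matches are shown with the 13 motif bases in capitals, and 2 of them lie just past the start site.
Acox2 (chr14:8258810-8258838, minus strand): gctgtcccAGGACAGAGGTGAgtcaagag
Echs1 (chr7:140116484-140116512, minus strand): gcccgctcAGGTCACGGGTCCacccctta
Etfa (chr9:55512300-55512328, minus strand, motif on the opposite strand): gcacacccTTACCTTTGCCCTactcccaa
Slc25a20 (chr9:108662134-108662162, plus strand): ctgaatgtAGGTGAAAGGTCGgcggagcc
None of these 4 genes was called, and their log2 fold changes were 0.01, 0.10, -0.03 and -0.24. The nearest windows in the promoters of Acaa1b and Ehhadh, shown because these genes lay lower in every knockdown library, each had 4 mismatches.
Acaa1b (chr9:119157256-119157284, minus strand, motif on the opposite strand): gcccagatTGGCCTTGAACTTgcgcagta
Ehhadh (chr16:21787887-21787915, minus strand): gagcacgaAGTGCAAGGGGCAggaggcgg
These are matches of letters in a short window and say nothing about binding. GGGCGG, the GC box core, on either strand was in 68.8% of the member promoters, against 54.1% of the promoters of genes tested, and TATAAA was in 0, against 9.15%.

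Related genes were read from lists of the rest of the pathway. Of 21 other beta-oxidation genes tested, 0 were called lower and 1 higher, with a median log2 fold change of -0.03. In this list 4 genes had an unadjusted p under 0.05 in edgeR, 2 of them lower, and DESeq2 also called 0 lower. The called gene was Nudt7, a peroxisomal CoA diphosphatase that the study also displays in its gene network of these libraries, with 7652, 9183 and 6659 normalized counts in the scramble libraries and 11283, 9694 and 12744 in the knockdown libraries. Its log2 fold change of 0.52 had an adjusted p of 0.048 (edgeR), and of the 6 fits that left out 1 library it was called only without scramble replicate 2, with adjusted p of up to 0.226 in the other 5 (without scramble replicate 3). Of 15 peroxisome biogenesis genes, 0 were called by edgeR or DESeq2, 3 had an unadjusted p under 0.05, and the median was 0.00. Of 16 genes of mitochondrial content, 1 was called higher, the chaperonin gene Hspd1 at 0.53 with an adjusted p of 0.02 (edgeR), which was 0.0612 without scramble replicate 2 and 0.127 without scramble replicate 3, and the median was 0.03.

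Among 18 genes of PPARα, its partners (Rxra and Ppargc1a) and its targets outside oxidation, 5 were called lower and 0 higher. The median log2 fold change was -0.99. DESeq2 called 7 lower and 1 higher, and 1 of the 18 was higher at an unadjusted p under 0.05 in edgeR. In both cases the higher gene was Rxra, which encodes the partner RXRα and not a target counted here. Its log2 fold change was 0.35, with an adjusted p of 0.0686 (edgeR) and 0.0334 (DESeq2). Some of the 18 genes, Pdk4, Acot3 and Acot4 included, are displayed by the study among its leading genes of these same libraries, so their direction is not independent evidence. Pdk4, a kinase that holds back pyruvate oxidation, had normalized counts of 502, 685 and 533 in the scramble libraries and 193, 165 and 168 in the knockdown libraries, a log2 fold change of -1.71 with an adjusted p of 0.000209 (edgeR). The acyl-CoA thioesterase genes Acot3, Acot4 and Acot2 had log2 fold changes of -3.29, -1.66 and -1.66, each called in every alternative. The fatty acid ω-hydroxylase gene Cyp4a10, named after its value was seen, fell by 2.75 on the log2 scale with an adjusted p of 0.0419 (edgeR), but of the 6 fits that left out 1 library it was called only without knockdown replicate 3, with adjusted p of 0.0619 to 0.158 in the rest. The Acot and Cyp4a families hold closely related genes, and how many reads they share was not measured here. Ppara had 5678, 6839 and 5843 normalized counts in the scramble libraries and 4749, 5914 and 5080.2 in the knockdown libraries, and its log2 fold change of -0.22 had an adjusted p of 0.269 (edgeR). Of the 5 ketogenesis genes, which turn the acetyl-CoA of beta-oxidation into ketone bodies, 0 were called by edgeR or DESeq2, 2 had an unadjusted p under 0.05, and the median was -0.19. Slc16a1, the monocarboxylate transporter that exports them, was at 0.42 and Bdh1, the β-hydroxybutyrate dehydrogenase gene, at -0.37, with adjusted p of 0.112 and 0.141 (edgeR).

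**Figure D5:**
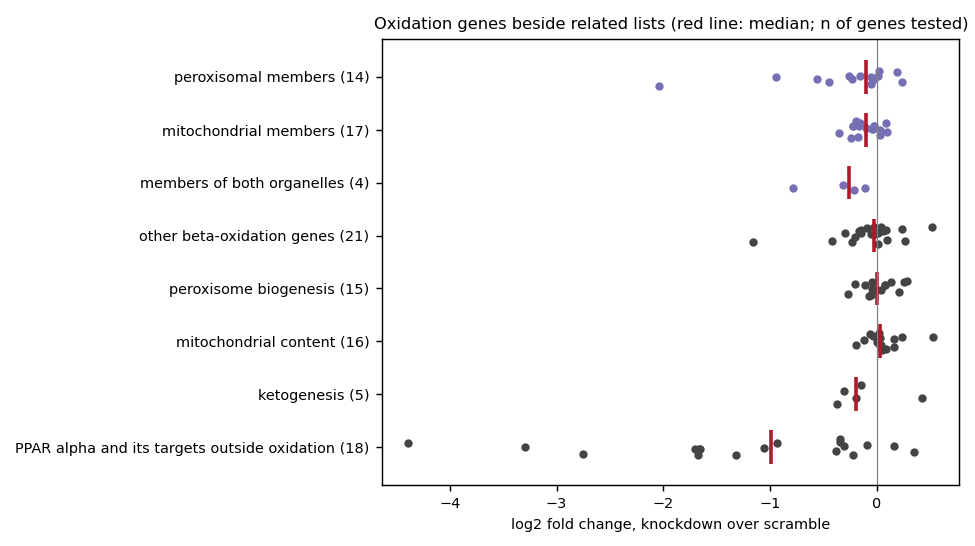
Log2 fold change (x axis, knockdown over scramble) of every tested gene in each list (y axis, number of genes tested in brackets), with members in purple, other genes in grey and the list median as a red line. The member medians lie at -0.10, -0.10 and -0.26. The median of PPARα and its targets outside oxidation, a list that also holds Rxra and Ppargc1a, lies at -0.99.

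Markers of other liver cells were read beside these results. The 5 Kupffer cell markers summed to 103 to 128 TPM in the scramble libraries and 131 to 175 TPM in the knockdown libraries, and 2 of the 5, Clec4f and Adgre1, were called higher. All 5 had an unadjusted p under 0.05 and lay higher in every knockdown library, and DESeq2 called 3 of the 5 higher. Of the 6 fits that left out 1 library, Clec4f was called in 2, those without scramble replicate 1 and without knockdown replicate 3, and Adgre1 in 1, that without knockdown replicate 3. Their adjusted p reached 0.174 and 0.208 without scramble replicate 3 (edgeR). None of the 5 sinusoidal endothelial, 5 stellate, 4 cholangiocyte or 5 lymphocyte and neutrophil markers was called, among the 5, 5, 3 and 3 that could be tested, by edgeR or DESeq2 or at an unadjusted p under 0.05. The part of the Kupffer cell markers in the Crat and Acaa1b results was not tested.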

How the data were processed

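RNA from 6 mouse livers (3 per group, groups and replicate numbers from the titles) was sequenced. Libraries followed poly(A) selection by the study's methods and ribosomal RNA depletion per the labels. The authors trimmed reads with Trimmomatic and aligned them with STAR, and featureCounts gave the number of reads with a unique alignment in the exons of each gene. The build was GRCm38 by the methods and GRCm39 per the submitters' processing notes, and the strand setting and annotation are not given in the sources used here. The authors deposited raw counts per gene and TPM. Raw counts were used for every test and TPM for levels between genes and ratios. The authors' table of their own comparison (fold changes and p-values) and their normalized counts were not used.

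Counts of mouse genes were filtered with filterByExpr, scaled by TMM and fitted with edgeR 4.0.16 (robust quasi-likelihood, R 4.3.3) on all 6 libraries with no covariate. The p-values were adjusted by Benjamini-Hochberg over 16327 genes. They set the difference between groups against the spread between mice, and 3 libraries per group limit the precision. Rows of the 92 ERCC spike-ins stayed out of library sizes and tests, except where they gave the library sizes. Alternatives were DESeq2 1.42.0, limma voom 3.58.1, other library sizes and filters, a replicate block and leaving out each library. The procedure was tested on simulated data. Every pair of replicates differed beyond sampling noise. Replicate numbers did not pair the samples. All 35 members were named, with the targeted gene, the called genes of each other list (at most 4, or else the 2 of smallest p) and Ppara. The genes this rule names in the peroxisome biogenesis list are not reported here. The members and lists were chosen with earlier results of these data known. Sequences and start sites are from RefSeq (GRCm38.p6) and coding sequences from GENCODE vM21.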

Additional observations from a re-analysis of the deposited data

How the results depend on the processing

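Over all genes, 1032 were called, 3394 with library sizes from the spike-ins, 1902 with no filter on low counts, and 103 (without scramble replicate 3) to 1881 (without knockdown replicate 3) when 1 library was left out. The number of peroxisomal members called lower was 1, and it was 3 with DESeq2, 2 with library totals alone, 2 with the genes of both organelles counted as peroxisomal, 0 with a log2 fold change limit of 1, and 0 to 2 when 1 library was left out. The number of mitochondrial members called lower was 0, and it was 1 with no filter, 1 with the genes of both organelles counted as mitochondrial, and 0 to 1 when 1 library was left out. Members called higher numbered 0, and 1 with spike-in sizes. With spike-in sizes the median log2 fold change was 0.0947 for peroxisomal and 0.098 for mitochondrial members, with the median of all genes at 0.20. Over 490 values of single members under 14 alternatives, 427 kept their direction and their side of the threshold, 5 lost the call (Acaa1b each time), 11 gained one, and 47 of genes that were not called changed sign. The replicate numbers did not pair the mice, as the correlations of same-numbered libraries were -0.0226, 0.0231 and 0.00321. With the replicate number as a block, 878 genes were called, and 2 peroxisomal members were called lower, Abcd2 being the one added. The cause of these shifts was not tested. At these depths every member was counted at least 53 times per library, and 34 members were counted at least 100 times in every library. How far counting and the spread between mice each limited the precision was not measured.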
